A study of Homo sapiens with 12 samples.

Results

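The genes described here are 34 human genes of the thiol antioxidant defence, chosen by name: the transcription factor NRF2 (gene NFE2L2) with its partners, the glutathione and thioredoxin systems, the NADPH supply and a set of NRF2 target enzymes and transporters. They are 34 of the 19775 genes for which the arrays carried a probe set naming that gene alone, and each was read from its brightest such probe set, by the mean of all 12 arrays. The cells were HK-2, a line immortalized from human kidney proximal tubule, and each sample was read on 1 Affymetrix array. They received either a high dose of a compound that the labels call Nnm or the vehicle control, for 24 h or for 48 h, which makes 4 groups of 3 biological replicates. All groups grew in DMEM/Ham's F12 with EGF, hydrocortisone, insulin, transferrin and sodium selenite. The sources used here do not give the dose, the vehicle or the identity of Nnm, and all results are from this cell line alone. Values are log2 expression, so a difference of 1 is a doubling.

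NRF2 is the main activator of the genes against oxidants and electrophiles. In resting cells KEAP1 binds it and hands it to a ubiquitin ligase for destruction; when cysteines of KEAP1 are modified, NRF2 accumulates, pairs with a small MAF protein such as MAFG and binds the antioxidant response element, a site from which BACH1 otherwise represses. The targets import cystine and build glutathione, reduce thioredoxin and peroxiredoxins, regenerate NADPH and inactivate quinones and carbonyls. Proximal tubule cells, which take up and concentrate many xenobiotics and their glutathione conjugates, are known to draw on this system.

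Promoters of TXNRD1, which rose with Nnm at both times, and of GCLM, a subunit of the enzyme that limits glutathione synthesis, are shown for the letters of that element. RefSeq windows of GRCh38.p14, from 250 bases before to 50 bases after a transcript start, were in hand for 25 of the 34 members, several of which have more than 1 start. The core TGACNNNGC was searched on both strands, where N is any base, and it can overlap the AP-1 core TGACTCA. It was found in 9 of 36 member windows (25%), which belonged to 8 members: KEAP1, GCLM, GPX2, GSTO1, TXNRD1, PGD, ME1 and PIR. The matches of ME1 and PIR included one that also contained TGACTCA. The share was 13.3% of all 35116 windows and 14.7% of the 13283 windows of genes tested on the arrays. TXNRD1, on the plus strand, held matches at its outermost start (shown over chr12:104215529-104215779) and at a start inside the gene (chr12:104286782-104287032). GCLM, on the minus strand, held a match 34 bases before its start (shown over chr1:93909430-93909680). Each run below reads along the gene's strand and ends at the first transcribed base, and capitals mark the match, as the core itself or its reverse complement.
TXNRD1 outer start: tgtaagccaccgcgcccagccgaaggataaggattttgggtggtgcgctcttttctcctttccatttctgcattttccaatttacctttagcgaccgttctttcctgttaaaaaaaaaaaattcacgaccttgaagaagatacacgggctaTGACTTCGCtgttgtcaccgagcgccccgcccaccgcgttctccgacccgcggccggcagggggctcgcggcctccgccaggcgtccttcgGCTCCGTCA
TXNRD1 inner start: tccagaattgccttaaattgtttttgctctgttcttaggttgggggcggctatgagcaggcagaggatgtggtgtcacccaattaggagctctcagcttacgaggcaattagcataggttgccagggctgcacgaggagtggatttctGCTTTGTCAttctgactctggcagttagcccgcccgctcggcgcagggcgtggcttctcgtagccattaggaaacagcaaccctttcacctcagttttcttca
GCLM start: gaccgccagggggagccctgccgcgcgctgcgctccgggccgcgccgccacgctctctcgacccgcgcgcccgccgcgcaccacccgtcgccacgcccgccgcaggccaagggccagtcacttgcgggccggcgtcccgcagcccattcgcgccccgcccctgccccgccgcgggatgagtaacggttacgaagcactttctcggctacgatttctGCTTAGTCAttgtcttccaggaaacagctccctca
A match describes letters and shows neither binding nor a cause of any change. The windows of NQO1 and SRXN1 held no match, which says only that these letters are not there.

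The arrays carried 54675 probe sets, of which 22829 were above log2 4 on at least 3 of 12 arrays and were tested, standing for 10963 genes. Medians per array ranged from 2.91 to 2.98. Along the first principal component (57.4% of variance) controls scored -49.6 to -44.2 and Nnm replicates 1 and 3 scored 68.6 to 87.8. Nnm replicate 2 stood apart from them, at -16.1 (24 h) and -19.8 (48 h), so results are given with and without both arrays of that number. Of 9 proximal tubule markers with a probe set, only PAX8 was above the filter (10.61 to 11.38), and LRP2, CUBN, AQP1, ANPEP, GGT1, SLC34A1, SLC5A2 and SLC22A6 stayed between 2.08 and 3.16 on every array. The epithelial genes KRT8, KRT18, KRT19, CDH1 and EPCAM were all measured. Markers of other cells above the filter were 2 of 5 for fibroblasts (DCN from 11.29 to 12.39 and COL1A1 from 7.18 to 9.01), 1 of 3 for podocytes (PODXL) and 1 of 4 for endothelium (PECAM1), against 0 of 4 for distal nephron. The leukocyte marker PTPRC stayed between 2.87 and 3.02. None of these markers was called with Nnm at either time in limma, and the lowest adjusted p was 0.0707, for PODXL at 48 h. In such bulk samples a change in the RNA per cell and a change in which cells are present cannot be told apart.

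Of the 34 members, 32 were tested. GPX2, a glutathione peroxidase typical of gut epithelium, lay between 2.57 and 2.73 and AKR1B10, an aldose reductase relative and NRF2 target, between 2.30 and 2.80 on every array, under the filter in both control and Nnm cells. Called means an adjusted p under 0.05 in limma, with the Benjamini-Hochberg adjustment over all tested probe sets. At 24 h, 3 members rose with Nnm (SLC7A11, TXNRD1 and NQO1), against 8.31% of all genes, and 1 fell (TXNRD2), against 8.21%. At 48 h, 2 rose (TXNRD1 and NQO1), against 6.55% of genes, and 1 fell (GSS), against 4.27%. As 3 of 32 and 2 of 32, the rises are near the share of all genes, and the falls, 1 of 32 at each time, are near or under it.

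With the replicate number as a block, which the pairing of the samples allows, more was called both among members and among all genes. At 24 h, 10 of 32 members were called higher (15.6% of genes), adding GCLC, GSR, SRXN1, TKT, ME1, AKR1C1 and OSGIN1. Of the same 32, 3 were called lower (15.9% of genes), adding GSS and TXN2. OSGIN1 passed the filter through Nnm arrays alone, so its call supports nothing in these counts. At 48 h the block called 3 higher (13.2% of genes), adding PGD, and 2 lower (9.68%), adding TXN. With the block fitted within each time, GSR (adjusted p = 0.0443), AKR1C1 (0.0443) and PGD (0.0439) stayed called. At 24 h GCLC (0.0654), SRXN1 (0.0691), TKT (0.0779), ME1 (0.0896), OSGIN1 (0.0652), GSS (0.0842) and TXN2 (0.0941) were then not called, nor was TXN at 48 h (0.0949). Without both Nnm arrays numbered 2 the members called were 13 higher and 6 lower at 24 h (25.4% and 24.5% of genes) and 16 higher and 4 lower at 48 h (24.9% and 19.9%). Those arrays were set aside because they lay near the controls, so these last counts describe the other arrays and do not test the genes.

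Over the tested members the median difference between Nnm and control was 0.16 at 24 h and 0.27 at 48 h, against 0 and 0.02 over all tested genes. By replicate the members' median was 0.28, 0.02 and 0.21 at 24 h and 0.42, -0.03 and 0.33 at 48 h, so replicate 2 lay at about 0 at both times. The mean difference was positive in 21 members and negative in 11 at 24 h, and positive in 23 and negative in 9 at 48 h. The 3 Nnm arrays lay wholly above the 3 controls for 8 members at 24 h (SLC7A11, GCLC, TXNRD1, TKT, ME1, NQO1, OSGIN1 and PIR), against 19.6% of genes, and wholly below for 7 (GSS, GPX1, GSTO1, TXN, TXN2, TXNRD2 and TALDO1), against 20.0%. At 48 h they lay above for 7 (GCLC, TXNRD1, PRDX6, PGD, NQO1, AKR1C1 and ABCC3), against 20.7%, and below for 6 (GSS, TXN, TXN2, TXNRD2, PRDX3 and TALDO1), against 16.9%. As OSGIN1 passed the filter through Nnm arrays alone, it supports nothing in these counts.

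The size of the differences separated the replicates. Counting members at least 1 log2 unit above the control of the same number, on unrounded values, replicate 1 had 10 of 32 at 24 h (31.2%, against 11.3% of genes) and replicate 3 had 11 (34.4%, against 11.2%). Replicate 2 had only TXNRD1 and NQO1 (6.2%, against 2.4%). At 48 h the counts were 7 in replicate 1 (21.9%, against 12.3%), 0 in replicate 2 (0.0%, against 2.1%; AKR1C1, 1.00 as rounded, lay just under) and 4 in replicate 3 (12.5%, against 9.6%). At least 1 unit below control lay GSS, TXNRD2 and ABCC3 in replicates 1 and 3 at 24 h, GSS and TXNRD2 in the same replicates at 48 h, and 0 members in replicate 2 at either time. The members counted as above control include OSGIN1 in replicates 1 and 3 at 24 h and in replicate 1 at 48 h. OSGIN1 passed the filter through Nnm arrays alone, so it supports nothing in those counts.

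**Figure D1:**
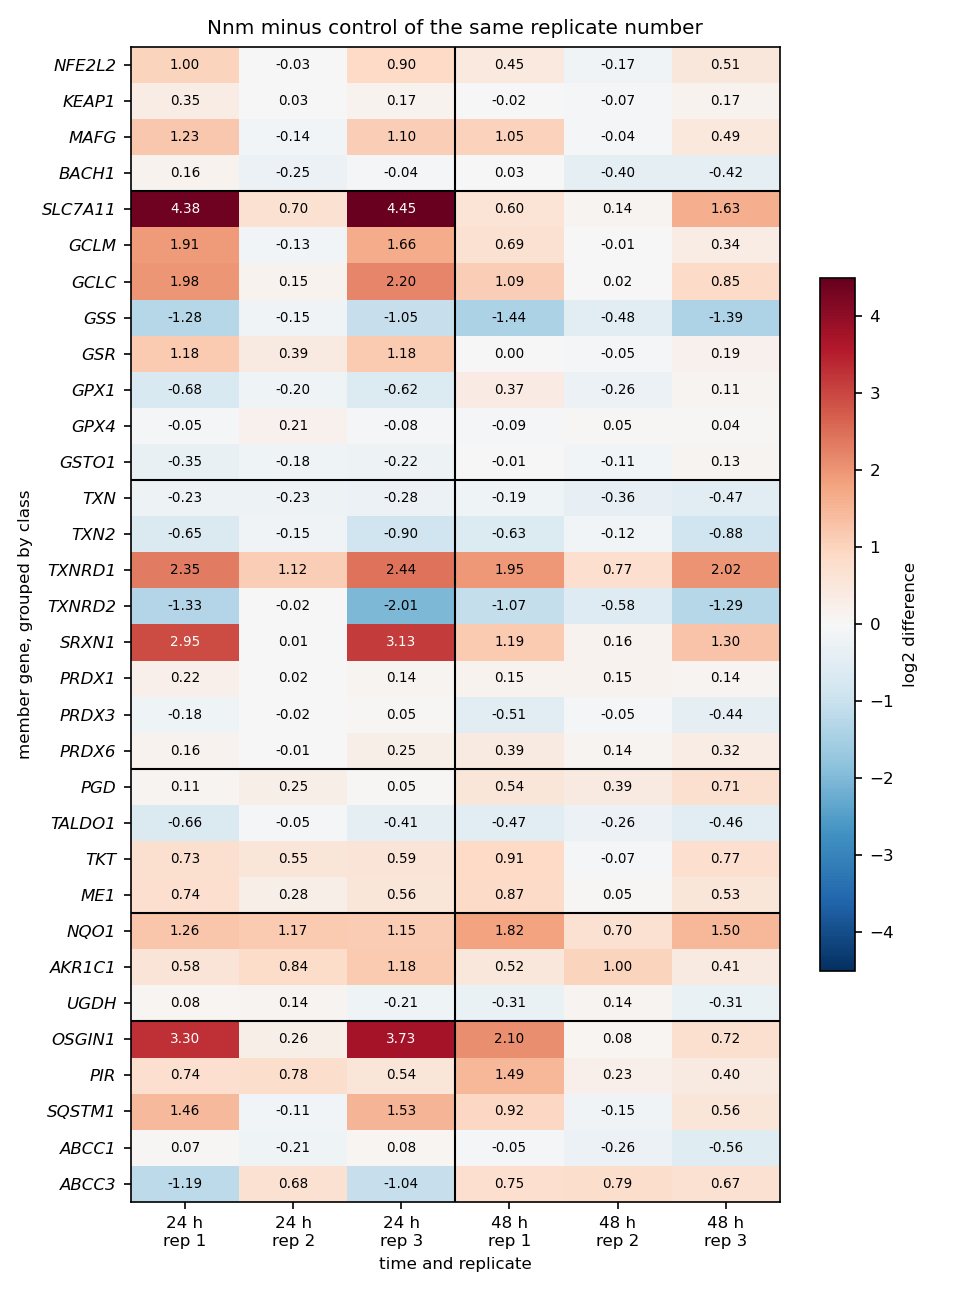
Nnm minus the control of the same replicate number for the 32 tested members, in log2 units, with 1 row per gene, 1 column per replicate and time, and lines between the classes. Replicate 2 is pale for most rows, with TXNRD1 (1.12) and NQO1 (1.17) its highest at 24 h and AKR1C1 (1.00) at 48 h, while SLC7A11, SRXN1 and OSGIN1 are darkest in replicates 1 and 3 at 24 h.

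Among the regulators none was called at either time, with or without the block. NFE2L2, the gene of NRF2 itself, read 11.72, 11.23 and 11.58 in control replicates 1, 2 and 3 and 12.72, 11.20 and 12.49 with Nnm at 24 h. At 48 h it read 12.01, 11.35 and 11.69 in controls and 12.46, 11.18 and 12.20 with Nnm. Replicates 1 and 3 lay above their own controls at both times and replicate 2 just below its own, so the groups overlapped. The mean difference was 0.62 ± 0.42 (SE) at 24 h (adjusted p = 0.309) and 0.26 ± 0.42 at 48 h (adjusted p = 0.707). It was 1.09 and 0.65 without the Nnm arrays numbered 2.

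KEAP1, the inhibitor of NRF2, read 9.95, 9.53 and 9.91 in 24 h controls and 10.30, 9.56 and 10.08 with Nnm. At 48 h it read 9.82, 9.39 and 9.64 in controls and 9.79, 9.32 and 9.81 with Nnm. These groups overlapped throughout, and the difference was 0.18 at 24 h (95% interval -0.32 to 0.68) and 0.02 at 48 h (-0.47 to 0.52). MAFG, the small MAF partner, differed by 0.73 and 0.50, with 1.23, -0.14 and 1.10 in replicates 1, 2 and 3 at 24 h. BACH1, the repressor, differed by -0.04 and -0.26, and its arrays overlapped at both times.

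In the class of cystine import and glutathione 8 of 9 members were tested; 1 rose at 24 h and 1 fell at 48 h, and the class median was 0.47 at 24 h and 0.06 at 48 h. SLC7A11, the light chain of the cystine and glutamate exchanger that supplies cysteine for glutathione, had the largest difference of any member at 24 h. It read 6.79, 7.20 and 7.06 in controls and 11.17, 7.90 and 11.51 with Nnm. Every Nnm array lay above every control, but replicate 2 by only 0.70 over its own control against 4.38 and 4.45 in replicates 1 and 3. SLC7A11 rose by 3.17 ± 0.81 (SE), or 9.03-fold (adjusted p = 0.0310), and the difference was 4.32 without the Nnm arrays numbered 2. Its call was lost without control replicate 1, 2 or 3 of 24 h (adjusted p = 0.0934, 0.0609 and 0.105), without Nnm replicate 1 or 3 of 24 h (0.128 and 0.116), with no filter on low values (0.105) and with the 24 h arrays alone (0.0980). At 48 h the controls read 8.81, 7.90 and 7.55 and the Nnm arrays 9.41, 8.04 and 9.18. Control replicate 1 lay above Nnm replicate 2 there, and the difference of 0.79 ± 0.81 was not called (adjusted p = 0.537).

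GCLC and GCLM are the catalytic and modifier subunits of glutamate-cysteine ligase, the rate-limiting enzyme of glutathione synthesis. GCLC read 8.74, 8.74 and 8.66 in 24 h controls and 10.72, 8.89 and 10.86 with Nnm, and 8.83, 8.91 and 8.85 against 9.91, 8.93 and 9.70 at 48 h. The control arrays were close together and all Nnm arrays lay above them, replicate 2 by a narrow margin. The difference was 1.44 ± 0.45 (SE) at 24 h (adjusted p = 0.0535, and 0.0286 with the block) and 0.65 ± 0.45 at 48 h (adjusted p = 0.348). It was 2.08 and 0.94 with the Nnm arrays numbered 2 left out. GCLM differed by 1.15 and 0.34, and its replicates at 24 h were 1.91, -0.13 and 1.66.

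GSS, glutathione synthetase, which catalyses the last step of that pathway, moved the other way. It read 10.95, 10.81 and 10.90 in 24 h controls and 9.67, 10.66 and 9.86 with Nnm, and 11.14, 10.81 and 11.03 against 9.70, 10.33 and 9.64 at 48 h. All Nnm arrays lay below all controls at both times, with replicate 2 closest to them. GSS fell by 1.10 ± 0.26 (SE) at 48 h, 2.15-fold lower (adjusted p = 0.0290). At 24 h the difference was -0.83 ± 0.26 (adjusted p = 0.0553, and 0.0389 with the block). Leaving out the Nnm arrays numbered 2 gave -1.32 at 48 h and -1.13 at 24 h. The 48 h call was lost without control replicate 1, 2 or 3 of that time (adjusted p = 0.0936, 0.0599 and 0.0888), without Nnm replicate 1 or 3 (0.114 each), with no filter (0.0838), with the block fitted within each time (0.0558) and with the 48 h arrays alone (0.0689). A further probe set of GSS was called lower at both times, by -0.89 (adjusted p = 0.0419) and -1.01 (adjusted p = 0.0346).

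None of the tested enzymes that use or recycle glutathione was called without the block. GSR, glutathione reductase, differed by 0.92 ± 0.28 (SE) at 24 h (adjusted p = 0.0522, and 0.0157 with the block), with 1.18, 0.39 and 1.18 in the replicates, and by 0.05 at 48 h. The peroxidase GPX1 differed by -0.50 and 0.07, and all its Nnm arrays lay below controls at 24 h. GPX4, which reduces lipid peroxides in membranes, differed by 0.03 and 0.00, with 95% intervals of -0.23 to 0.29 and -0.26 to 0.26. GSTO1, an omega-class glutathione transferase, differed by -0.25 and 0.00.

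Of the 8 thioredoxin genes all were tested. At 24 h 1 rose and 1 fell, at 48 h 1 rose, and the class medians were 0.04 and -0.09. The cytosolic and mitochondrial reductases went in opposite directions at 24 h. TXNRD1, the cytosolic thioredoxin reductase, read 11.74, 11.90 and 11.71 in 24 h controls and 14.09, 13.01 and 14.16 with Nnm. At 48 h it read 11.76, 11.88 and 11.68 in controls and 13.71, 12.64 and 13.71 with Nnm. The 6 control arrays lay within a narrow band and all 6 Nnm arrays above it, replicate 2 included, at about the midpoint. TXNRD1 rose by 1.97 ± 0.34 (SE), or 3.92-fold, at 24 h (adjusted p = 0.0121) and by 1.58 ± 0.34, or 2.99-fold, at 48 h (adjusted p = 0.0215). Without the Nnm arrays numbered 2 it was 2.34 and 1.93 higher. The 24 h call was lost without control replicate 3 (adjusted p = 0.0622), Nnm replicate 1 (0.0636) or Nnm replicate 3 (0.0567) of that time and with the 24 h arrays alone (0.0554). The 48 h call was lost without control replicate 1, 2 or 3 (adjusted p = 0.0700, 0.0547 and 0.0753) or Nnm replicate 1 or 3 (0.0934 and 0.0891) of that time, with no filter (0.0683) and with the 48 h arrays alone (0.0681).

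TXNRD2, the mitochondrial thioredoxin reductase, read 6.76, 6.06 and 7.08 in 24 h controls and 5.43, 6.04 and 5.07 with Nnm, and 6.45, 5.67 and 6.36 against 5.38, 5.09 and 5.07 at 48 h. The groups did not overlap at either time, although replicate 2 at 24 h was only 0.02 below its own control. TXNRD2 fell by 1.12 ± 0.32 (SE) at 24 h, 2.18-fold lower (adjusted p = 0.0424), and the difference at 48 h was -0.98 ± 0.32 (adjusted p = 0.0726). Leaving out the Nnm arrays numbered 2 gave -1.39 and -0.94. The 24 h call was lost without control replicate 1 or 3 of 24 h (adjusted p = 0.121 and 0.149), Nnm replicate 1 or 3 of 24 h (0.143 and 0.155), control replicate 1 or 3 of 48 h (0.0556 and 0.0592) or Nnm replicate 1 or 3 of 48 h (0.0519 and 0.0585). It was also lost with no filter (0.126), with the block within each time (0.0782) and with the 24 h arrays alone (0.106). The mitochondrial thioredoxin itself, TXN2, differed by -0.57 ± 0.18 at 24 h (adjusted p = 0.0554, and 0.0457 with the block) and -0.54 ± 0.18 at 48 h (adjusted p = 0.0752), with all Nnm arrays below controls. A further probe set of TXN2 was called lower at both times, by -0.83 (adjusted p = 0.00912) and -0.45 (adjusted p = 0.0407). TXN, the cytosolic thioredoxin, differed by -0.24 and -0.34 (adjusted p at 48 h = 0.0847, and 0.0390 with the block), by -0.19 to -0.47 in each replicate.

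SRXN1, sulfiredoxin, which repairs over-oxidized peroxiredoxins, read 8.56, 8.32 and 8.89 in 24 h controls and 11.51, 8.33 and 12.02 with Nnm, and 8.63, 8.21 and 8.45 against 9.82, 8.37 and 9.75 at 48 h. Replicates 1 and 3 stood far above controls at 24 h and replicate 2 was level with its own control, so the groups overlapped. The difference was 2.03 ± 0.79 (SE) at 24 h (adjusted p = 0.0977, and 0.0363 with the block) and 0.88 ± 0.79 at 48 h (adjusted p = 0.478). Replicates 1 and 3 of Nnm against all controls gave 3.17 and 1.35. The peroxiredoxins, the peroxide-reducing partners of thioredoxin and, for PRDX6, of glutathione, differed by 0.13 and 0.15 (PRDX1), -0.05 and -0.33 (PRDX3, in mitochondria) and 0.13 and 0.28 (PRDX6). None of these 3 was called at either time.

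**Figure D2:**
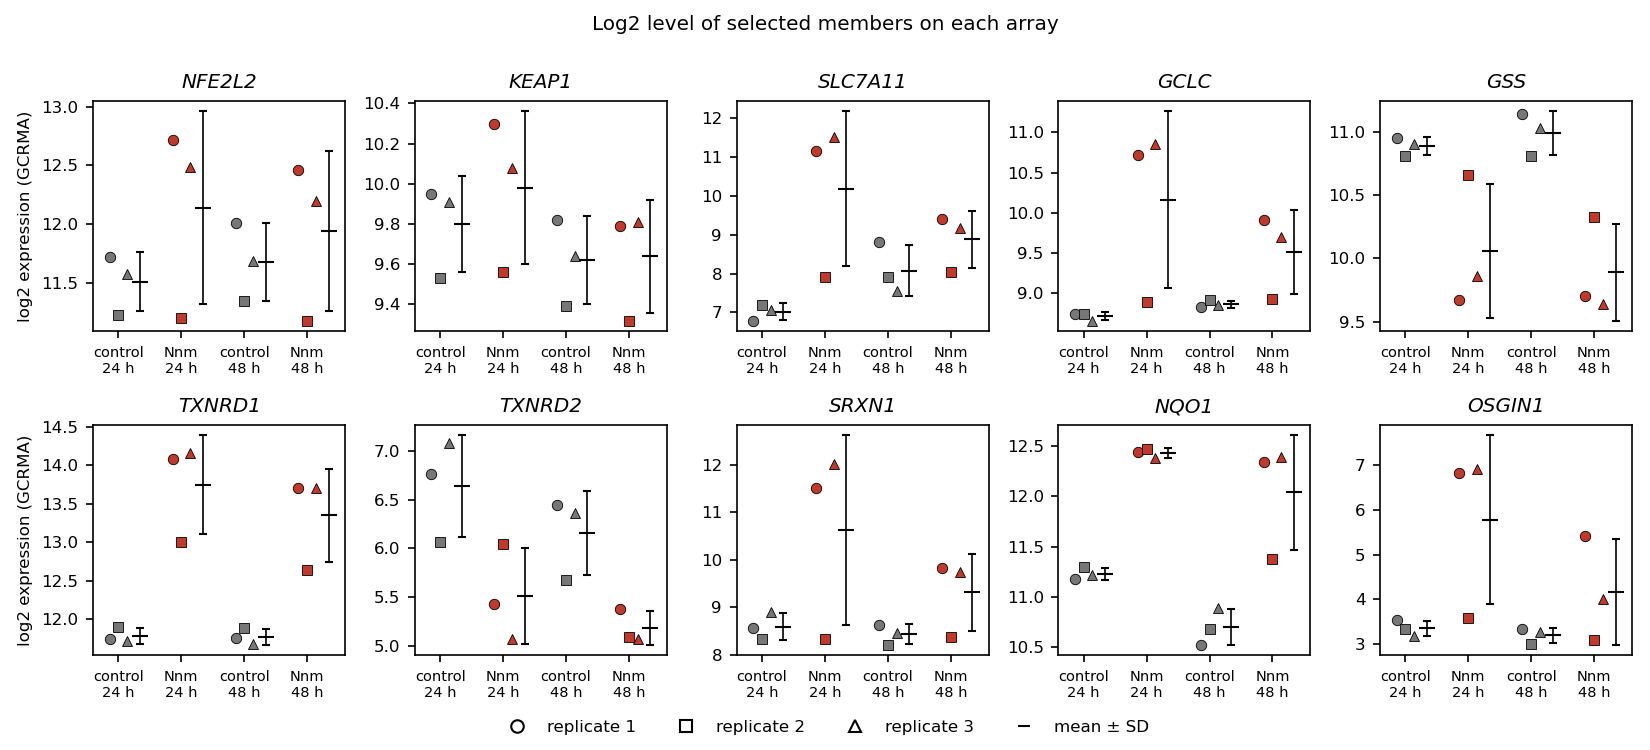
Log2 expression of 10 members on each of the 12 arrays, with control arrays in grey, Nnm arrays in red, replicates 1, 2 and 3 as circle, square and triangle, and bars for the mean ± SD of 3 arrays; each panel has its own vertical range. The squares of Nnm lie near the control arrays for SLC7A11, GCLC, SRXN1 and OSGIN1 and well above them for TXNRD1 and, at 24 h, for NQO1.

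The 4 genes of NADPH supply feed both reductase systems, and none was called at either time without the block. Their class median was 0.33 at 24 h and 0.51 at 48 h. ME1, the cytosolic malic enzyme, differed by 0.53 ± 0.20 (SE) at 24 h (adjusted p = 0.0871, and 0.0403 with the block) and 0.48 at 48 h. TKT, transketolase, differed by 0.63 ± 0.35 at 24 h (adjusted p = 0.228, and 0.0464 with the block), with 0.73, 0.55 and 0.59 in the replicates, and by 0.54 at 48 h, where replicate 2 was at -0.07. PGD, the phosphogluconate dehydrogenase, differed by 0.14 at 24 h and by 0.55 ± 0.17 at 48 h (adjusted p = 0.0622, and 0.0171 with the block). TALDO1, transaldolase of the same pentose phosphate pathway, differed by -0.37 and -0.40, with all Nnm arrays below controls at both times.

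Of the quinone and carbonyl enzymes 3 of 4 were tested, and 1 rose at each time. NQO1, the quinone reductase most used as a readout of NRF2, read 11.18, 11.30 and 11.22 in 24 h controls and 12.44, 12.47 and 12.38 with Nnm. At 48 h it read 10.52, 10.68 and 10.89 in controls and 12.34, 11.38 and 12.39 with Nnm. At 24 h replicate 2 was as high as the others (1.26, 1.17 and 1.15 over the controls), while at 48 h it was lower than they were (1.82, 0.70 and 1.50), still above every control. NQO1 rose by 1.19 ± 0.24 (SE), or 2.29-fold, at 24 h (adjusted p = 0.0168) and by 1.34 ± 0.24, or 2.53-fold, at 48 h (adjusted p = 0.0133). Without the Nnm arrays numbered 2 the differences were 1.18 and 1.67. The 24 h call was lost without control replicate 1 or 3 (adjusted p = 0.0598 and 0.0777) or Nnm replicate 1 or 3 (0.0757 and 0.0656) of that time. The 48 h call was lost without control replicate 1 (adjusted p = 0.0552), Nnm replicate 1 (0.0615) or Nnm replicate 3 (0.0620) of that time and with the 48 h arrays alone (0.0746). Its other 2 probe sets were called higher at both times, by 1.38 to 1.48.

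AKR1C1, a reductase of ketosteroids and reactive carbonyls, differed by 0.87 ± 0.33 at 24 h (adjusted p = 0.0917, and 0.0281 with the block) and by 0.64 at 48 h. Here replicate 2 was not the lowest: the replicates were 0.58, 0.84 and 1.18 at 24 h and 0.52, 1.00 and 0.41 at 48 h. Its probe set is of a type that can bind transcripts of near-identical relatives such as AKR1C2, so the gene behind the value is uncertain. UGDH, which makes the sugar donor for glucuronidation, differed by 0.01 and -0.16 and its arrays overlapped at both times.

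Of the 5 other NRF2 targets none was called at either time without the block. OSGIN1, an oxidative stress-induced growth inhibitor, read 3.53, 3.33 and 3.19 in 24 h controls, under the filter level of 4, and 6.83, 3.59 and 6.91 with Nnm. At 48 h it read 3.33, 3.01 and 3.28 in controls and 5.43, 3.09 and 4.0 with Nnm. Nnm replicate 2 stayed under log2 4 at both times. OSGIN1 passed the filter only through 3 Nnm arrays (6.83, 6.91 and 5.43), so its test is no independent support for a difference. With the control means under log2 4, only bounds on Nnm against control can be given, with controls counted as log2 4. The bound was at least 3.43-fold at 24 h (adjusted p = 0.0657, and 0.0282 with the block). At 48 h it was at least 1.13-fold (adjusted p = 0.444), and the Nnm mean there (4.17) rested on replicate 1 (5.43).

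PIR, a nuclear iron-binding protein, differed by 0.68 ± 0.24 and 0.71 ± 0.24 (adjusted p = 0.0755 and 0.0827), and at 24 h all 3 replicates were alike (0.74, 0.78 and 0.54). At 48 h the PIR replicates were 1.49, 0.23 and 0.4, so replicate 1 was the largest, and the groups overlapped. SQSTM1, the autophagy adaptor p62 that also binds KEAP1, differed by 0.96 and 0.44, with 1.46, -0.11 and 1.53 in the replicates at 24 h. ABCC1, an exporter of glutathione conjugates, differed by -0.02 and -0.29. ABCC3, a related exporter of glucuronides and bile acids, read 9.48, 9.46 and 9.13 in 24 h controls and 8.29, 10.14 and 8.09 with Nnm, and 9.55, 9.55 and 9.34 against 10.30, 10.34 and 10.01 at 48 h. Replicates 1 and 3 thus lay below their controls at 24 h while replicate 2 lay above its own, and at 48 h all 3 lay above. Its mean differences were -0.52 and 0.74 (adjusted p = 0.413 and 0.270).

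The Nnm effect at 48 h minus that at 24 h was tested for every member, and 0 were called, as were 0.0% of all genes in limma; 1418 probe sets had an unadjusted p under 0.05. The smallest p among members belonged to GSR (-0.87, 95% interval -1.75 to 0.01), SLC7A11 (-2.38, -4.91 to 0.14) and ABCC3 (1.26, -0.09 to 2.60), each with an adjusted p of 0.780. Compared by replicate, the difference was lower at 48 h than at 24 h in all 3 for NFE2L2, BACH1, SLC7A11, GCLC, GSS, GSR, TXNRD1, PRDX3, OSGIN1, SQSTM1 and ABCC1. These include smaller rises, as for SLC7A11, and deeper falls, as for GSS. The difference was higher at 48 h in all 3 for GSTO1, TXN2, PRDX6, PGD and ABCC3. The share of all genes with either pattern was not counted. For SLC7A11 the difference went from 4.38, 0.70 and 4.45 to 0.60, 0.14 and 1.63. For NQO1 it was lower at 48 h only in replicate 2. Without both Nnm arrays numbered 2 the members called lower at 48 h than at 24 h were SLC7A11, GCLM, GCLC, GSR, SRXN1 and OSGIN1 (-3.11 to -1.13, with the OSGIN1 controls under the filter), against 4.82% of genes, and those called higher were GPX1 (0.97) and ABCC3 (1.85), against 7.67%. As above, those counts describe the other arrays only.

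Control cells at 48 h against 24 h gave no call for any member or gene (0.0%), with 1836 probe sets at an unadjusted p under 0.05. The control level of NQO1 was 0.54 lower at 48 h in the means (10.70 against 11.23), and that of SLC7A11 was higher, at 8.08 ± 0.65 (SD) against 7.02 ± 0.21. These control levels enter each difference between the times.

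**Figure D3:**
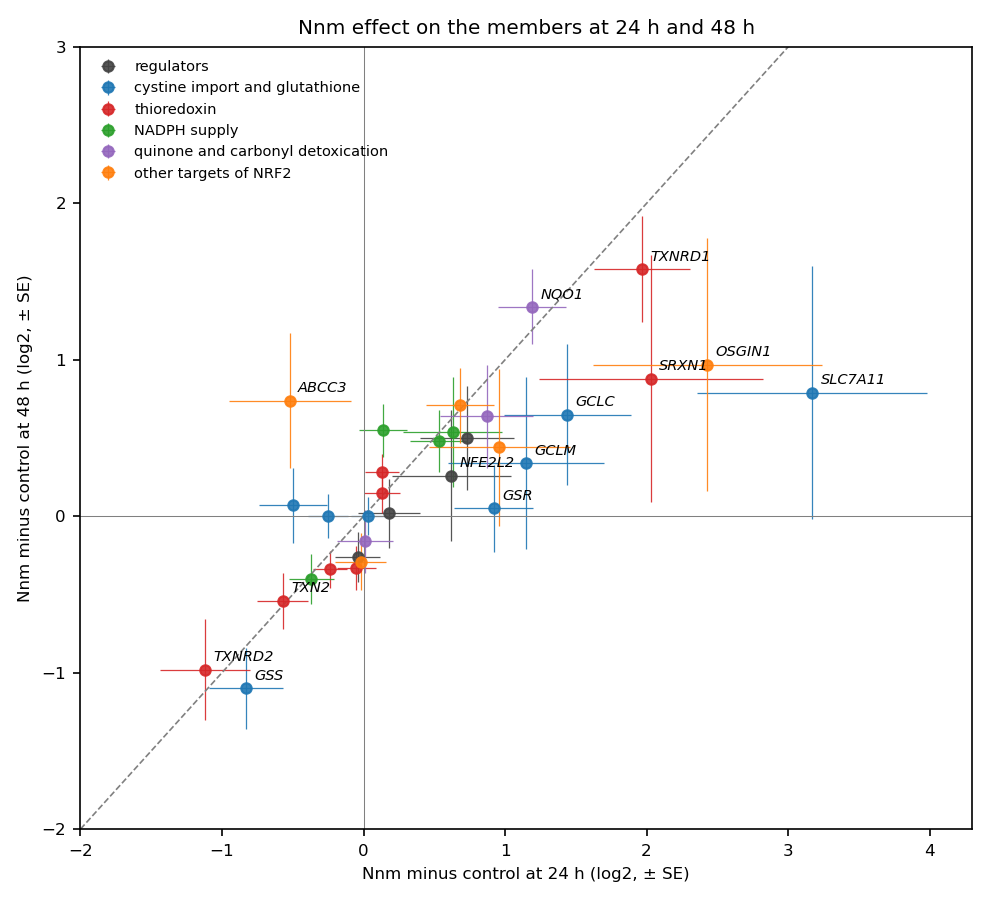
Nnm minus control at 24 h (horizontal) and 48 h (vertical) for the 32 tested members, in log2 units with bars of ± 1 SE, coloured by class; the dashed line marks equal effects, and the OSGIN1 point rests on controls under the filter level. TXNRD1 and NQO1 are high on both axes, TXNRD2 and GSS low on both, SLC7A11, OSGIN1, SRXN1, GCLC, GCLM and GSR lie below the line, and ABCC3 lies above it.

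Of 42 other probe sets of the members, 26 passed the filter, in 18 members. In 23 of these 26 the difference had the sign of the chosen probe set at 24 h, and in 24 at 48 h. Among them a dim probe set of SLC7A11 and a dim one of MAFG passed the filter only through Nnm arrays. Their sign is therefore no independent support. A further SLC7A11 probe set was called higher at 24 h, by 3.51 (adjusted p = 0.0311). A dimmer TKT probe set was called higher at 48 h, by 1.53 (adjusted p = 0.0387). The probe sets of ABCC3 disagreed within each time. One was called lower at 24 h, by -0.83 (adjusted p = 0.0419), and differed by -0.52 at 48 h. Another differed by 0.20 at 24 h and was called higher at 48 h, by 0.86 (adjusted p = 0.0404). Both are of the type, named for AKR1C1, that can bind transcripts of relatives.

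The remaining genes of these pathways were taken from a list of 67, of which 61 had a probe set and 51 were tested. At 24 h, 3 rose and 1 fell (against 8.31% and 8.21% of all genes), and at 48 h, 3 rose and 3 fell (6.55% and 4.27%), with median differences of 0.02 and 0.04. With the block these counts were 12 and 5 at 24 h (15.6% and 15.9% of genes) and 7 and 9 at 48 h (13.2% and 9.68%). TXNIP, which binds and inhibits thioredoxin, read 9.46, 9.96 and 9.23 in 24 h controls and 12.43, 12.05 and 12.48 with Nnm, and 4.22, 6.80 and 7.24 against 12.66, 11.87 and 12.78 at 48 h. It rose by 2.77 at 24 h (adjusted p = 0.0252) and 6.35 at 48 h (adjusted p = 0.00262), and Nnm replicate 2 was nearly as high as the others. The levels with Nnm were alike at both times and the control level was lower at 48 h, a difference in controls that was not called (-3.46, adjusted p = 0.247). IDH1, a cytosolic source of NADPH, rose by 0.57 (adjusted p = 0.0214) and 0.55 (adjusted p = 0.0253), and BLVRB, which reduces biliverdin and flavins, by 1.47 at 24 h (adjusted p = 0.0408). GPX8, a peroxidase of the endoplasmic reticulum, rose by 0.91 at 48 h (adjusted p = 0.0303). HMOX1 differed by 2.8 at 24 h, which was called only with the block (adjusted p = 0.0875, and 0.0394 with the block). With the block within each time it was not called (0.0702). Its replicates at 24 h were 3.99, -0.09 and 4.5, so the groups overlapped. At 48 h HMOX1 differed by 0.78 (adjusted p = 0.647). The falls were OPLAH, the 5-oxoprolinase of the glutathione cycle, at least 2.28-fold at 24 h (means 5.19 and 3.95, the latter under the filter level; adjusted p = 0.0303), and at 48 h the peroxiredoxin PRDX2 by 0.85 (0.0285), the glutathione transferase GSTP1 by 0.79 (0.0338) and the secreted peroxidase GPX3 by 0.73 (0.0496).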

How the data were processed

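Total RNA of HK-2 cells was converted to biotinylated cRNA and hybridised to 12 Affymetrix arrays, per the labels' protocols. The deposited table holds log2 expression per probe set, made by the authors with GCRMA per the submitters' processing notes (no version there). GCRMA corrects background from probe sequence and normalizes arrays to one another, so shifts common to most genes are hidden. The arrays it was run over are not stated there. The number of arrays limits the precision.

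From these values 1 linear model with 4 groups (8 residual degrees of freedom) was fitted in limma 3.58.1 (lmFit, contrasts.fit, eBayes) under R 4.3.3, after leaving out 62 control probe sets and those not above log2 4 on at least 3 arrays. Every adjusted p in the text is limma's. SE and 95% intervals are from that model. The script was tested on simulated data. Probe sets were named through GEO's platform annotation, which gave 1 gene for 41097, several for 1801 and none for 11777, with symbols updated through RefSeq (GRCh38.p14).

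Deviations from the group means correlated at 0.162 to 0.669 in all 18 pairs of arrays from different groups that share a number, each above 0.1. Over 36 pairs of different number they correlated at -0.655 to 0.372 (median -0.208), so the ranges overlap. Deviations cancel within a group, so this negative median follows from the positive values and is no separate evidence. By the check that every pair of the same number lay above 0.1, from the data and not the labels, the numbers were taken to pair the samples. The model has no block, and blocked values are given where they change a call.

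The members and lists were chosen with earlier results of these data known. Every array is given for members called with Nnm, for those whose absolute differences average at least 1 over the times, and for NFE2L2 and KEAP1; ABCC3 was added after its values were seen. Of the other pathway genes, called ones with up to 4 of the largest rises and falls at each time are named. HMOX1, not called without the block, was added for its difference at 24 h. Alternatives were other filters, normalizations, priors and probe set rules, array weights, blocks, single times and leaving out arrays. Scanner files, detection calls and protein sequences were not used here.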

Additional observations from a re-analysis of the deposited data

How the results depend on the processing

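All alternatives were planned with earlier results known. With all 12 arrays, 3366 probe sets were called at 24 h, 2323 at 48 h and 0 for the difference between the times. In the same order they were 848, 842 and 2 with no filter, 6700, 5046 and 0 with the replicate block, 12093, 11202 and 3899 with array weights, and 10730, 9605 and 2556 without both Nnm arrays numbered 2. With 1 time alone they were 112 and 115, and with the median probe set of each gene 1938 and 1369 of 10966 genes. Leaving out 1 replicate gave 81 to 8683, 207 to 6117 and 0 to 1028.

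Members called at 24 h, higher and lower, were 3 and 1. They became 5 and 3 with the filter at log2 6, 10 and 3 with the replicate block, 5 and 0 with the block within each time, 5 and 2 with an intensity trend and robust prior, 15 and 6 with array weights, 13 and 6 without both Nnm arrays numbered 2 and 1 and 0 with the 24 h arrays alone. Falls were 0 with no filter, 2 with arrays centred on their median and 3 with the median probe set. Members called at 48 h were 2 and 1. They became 1 and 0 with no filter, 14 and 7 with array weights, 16 and 4 without both Nnm arrays numbered 2 and 0 and 0 with the 48 h arrays alone. Falls were 2 with the replicate block, centring, the trend and the median probe set, and 0 with the block within each time. For the difference between the times, 0 became 3 higher and 6 lower with array weights and 2 and 6 without both Nnm arrays numbered 2. Leaving out 1 replicate gave 0 to 12 rises and 0 to 5 falls at 24 h, 0 to 7 and 0 to 3 at 48 h, and 0 to 1 and 0 to 4 for the difference; the highest 24 h counts were without Nnm replicate 2 of 24 h and the highest 48 h counts without Nnm replicate 2 of 48 h. The cause was not tested. Array weights gave those arrays 0.136 (24 h) and 0.196 (48 h).

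With the replicate block 53 of 64 member results kept their side of the threshold and 11 came past it. No called member changed sign. Uncalled values did, all but ABCC3 near 0. At 24 h, BACH1 (-0.045) was 0.049 with weights, 0.101 without both Nnm arrays numbered 2 and -0.185 to 0.101 leaving out 1 replicate. GPX4 (0.029) was -0.057, -0.058 and -0.058 to 0.088 in the same settings. UGDH (0.006) was -0.147, -0.086 and -0.098 to 0.202, and -0.009 with centring. ABCC1 (-0.020) was 0.123, 0.148 and -0.117 to 0.148, and 0.042 with the median probe set. PRDX3 (-0.051) was 0.007 after quantile normalization. At 48 h, leaving out 1 replicate, KEAP1 (0.023) was -0.091 to 0.184, GSR (0.048) -0.017 to 0.163, GPX1 (0.073) -0.080 to 0.372, GPX4 (0.002) -0.057 to 0.036 and GSTO1 (0.003) -0.120 to 0.107. With centring KEAP1 was -0.035, GSR -0.010, GPX4 -0.056 and GSTO1 -0.055, and with quantile normalization KEAP1 was -0.003. With the median probe set GSTO1 was -0.007 and ABCC3 (0.738) -0.024.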

Other observations

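Control levels of the members often shared a lowest array. Control replicate 2 was the lowest of the 3 controls at both times for 14 of 32 tested members (43.8%), against 23.8% of all tested genes. The same held of control replicate 1 for 4 members (12.5%, against 17.1%) and of control replicate 3 for 3 (9.38%, against 17.4%). Among the 14 were NFE2L2 (11.23 and 11.35 at 24 h and 48 h), KEAP1 (9.53 and 9.39) and GCLM (9.93 and 9.46). The count was made after the values were seen, members of a pathway are not independent, and no test was run. Whether it goes with the smaller Nnm differences of replicate 2 was not tested.

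The brightest ABCC3 probe set read 8.29, 10.14 and 8.09 with Nnm at 24 h and 10.30, 10.34 and 10.01 at 48 h. Another ABCC3 probe set read 6.57, 8.10 and 6.30 at 24 h and 8.09, 8.17 and 7.88 at 48 h, so both had the 24 h arrays of replicates 1 and 3 as their lowest. The probe set of ABCC3 that was called lower at 24 h read 5.58, 5.81 and 5.20 there and 5.78, 5.97 and 5.56 at 48 h. It missed that pattern only narrowly, by 5.58 against 5.56. The ABCC3 probe set called higher at 48 h read 5.51, 6.17 and 5.26 at 24 h and 6.58, 6.02 and 6.37 at 48 h, with that pattern. A further ABCC3 probe set read 5.89, 5.63 and 5.5 at 24 h and 5.93, 5.62 and 5.89 at 48 h, without it.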
